A study of Mus musculus with 8 samples.

Results

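The Fc gamma receptor genes comprise Fcgr1, Fcgr3, Fcgr4 and Fcgr2b, which encode the IgG-binding chains, and Fcer1g, which encodes their common signalling chain. They were taken by gene symbol, by a rule that uses no measured value although earlier results of these data were known, and make up 5 of the 21080 genes in the deposited tables. The cells were bone marrow-derived macrophages (BMDMs), grown from bone marrow with the growth factor M-CSF, and their RNA was sequenced. WT cells came from LysM-Cre mice, and Nudt21-cKO (cKO) cells from their sex-matched Nudt21 fl/fl LysM-Cre littermates, all on the C57BL/6 background, so that the Cre was present in both genotypes. Cells were collected untreated (0 h) or stimulated (4 h), meaning that they were kept overnight with 50 ng/ml IFNγ and then given 50 ng/ml LPS for 4 h, with 2 samples in each of the 4 groups. The LysM promoter drives Cre in myeloid cells, the floxed exons were exons 2 and 3 of Nudt21, each sample pooled BMDMs from 2 mice, and the age of the mice is not given in the sources used here. The labels list IFNγ/LPS as the treatment of the 0 h samples as well, and these were taken as untreated from their titles.

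Macrophages use Fc gamma receptors to recognise targets coated with IgG. FcγRI, FcγRIII and FcγRIV (Fcgr1, Fcgr3 and Fcgr4) are activating receptors, and they need the common gamma chain (Fcer1g) to reach the cell surface and to signal through its ITAM motif to Src-family kinases and Syk. FcγRIIB (Fcgr2b) carries an ITIM motif instead, recruits the phosphatase SHIP-1 and restrains the activating receptors, so the balance of activating and inhibitory chains sets how a macrophage answers immune complexes. IFNγ is known to raise transcription of Fcgr1 through a gamma-activated site (GAS) in its promoter, and PU.1 is a factor that defines the myeloid lineage. Nudt21 is a subunit of the cleavage factor that binds UGUA in nascent 3' UTRs and guides the choice of polyadenylation site.

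In the GENCODE M21 annotation of GRCm38, 4 of the 5 genes lie together on chromosome 1. From left to right these are Fcgr2b (chr1:170958617-170976547, minus strand), Fcgr4 (chr1:171018920-171029761, plus strand), Fcgr3 (chr1:171051174-171064935, minus strand) and Fcer1g (chr1:171229572-171234365, minus strand). The group spans 276 kb, with 42.4 kb between Fcgr2b and Fcgr4, 21.4 kb between Fcgr4 and Fcgr3, and 165 kb between Fcgr3 and Fcer1g. Fcgr1 lies apart, at chr3:96282909-96293969 on the minus strand.

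Promoter windows from 250 bases before to 50 bases after each RefSeq start (GRCm38.p6) were found for all 5 genes and searched on both strands for 4 motifs that bear on the IFNγ/LPS treatment or the lineage. The letters searched were TTCNNNGAA for GAS, GAGGAA for a PU.1 box, 2 copies of GAAA with 2 bases of any kind between them for the core of an interferon-stimulated response element (ISRE), and GGGANTTCC for an NF-κB core. The windows below show the matches, in capitals, in the genes that the stimulation results turn on, and no match overlapped another.
Fcgr1 GAS, chr3:96294061-96294087, minus strand, 109 bases before the start: aggatgtatTTCCCAGAAaagggaaca
Fcgr1 PU.1 box, chr3:96294010-96294033, minus strand, 55 bases before the start: gcaacttccTTCCTCttttctaat
Fcgr4 ISRE core, chr1:171018844-171018871, plus strand, 73 bases before the start: gtgtttctgGAAAAGGAAActggtgaga
Fcgr4 PU.1 box, chr1:171018895-171018918, plus strand, 22 bases before the start: gctatttacTTCCTCtcttctagt
Fcgr3 PU.1 box, chr1:171059395-171059418, minus strand, 6 or 15 bases before its 2 starts: tccatttccTTCCTCtttttgtag
The 3 activating chains thus share a PU.1 box, as do 31.3% of the 27025 genes with a promoter in the table. Only Fcgr1 of the 5 genes had a GAS match, which 9.55% of all genes have, and only Fcgr4 an ISRE core, which 3.99% have. The Fcgr2b and Fcer1g windows held none of the letters searched, and no window of the 5 genes held the NF-κB core that 1.92% of all genes have. A match of letters is a description of the window, not a measured binding site.

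The 3' UTRs are shown because Nudt21 binds UGUA there. The 3' UTR of the coding transcript used for each gene was 2397 bases with 12 UGUA in Fcgr2b, 1367 bases with 5 in Fcgr1, 493 bases with 1 in Fcgr3, 446 bases with 2 in Fcgr4 and 293 bases with 1 in Fcer1g. Over 19749 genes the median was 918 bases with 5 UGUA. The motif, written as TGTA in DNA letters, is in capitals in the windows of the genes with 1 or 2 motifs and in the window nearest the end of Fcgr2b.
Fcgr2b, chr1:170958712-170958735, minus strand, 109 bases from the transcript end: tatactaaaaTGTAagctcacaac
Fcgr3, chr1:171051281-171051304, minus strand, 120 bases from the transcript end: taaaatgtcaTGTAtatttttaaa
Fcgr4, chr1:171029338-171029361, plus strand, 414 bases from the transcript end: agagcaatggTGTAgaacccatga
Fcgr4, chr1:171029484-171029507, plus strand, 268 bases from the transcript end: tttttggtgtTGTAtgttcatttg
Fcer1g, chr1:171229720-171229743, minus strand, 162 bases from the transcript end: tctacatcagTGTAcactggcagg
The deposited values give 1 level per gene and sample, so they do not show which end of a transcript was used.

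All values below are taken as coverage, the mean number of reads over each base of a gene. This allows levels of genes of different length to be compared. Such a mean also depends on how much of the annotated 3' UTR the transcripts held, which these values do not show. For Fcgr2b the 3' UTR was 2397 of the 3544 bases of the transcript used. The part of 3' UTR length in the differences between genotypes was not tested. Coverage summed over all genes at 0 h ranged from 15751245 to 15827594 in WT and from 16650103 to 17744522 in the cKO, and at 4 h it was 14950347 to 15552049 in the WT and 17360205 to 17954882 in the cKO, and the values were not rescaled between samples unless stated. Nudt21 itself, the check of the labels, was 718 and 641 in the WT and 158 and 172 in the cKO at 0 h, and 547 and 575 in the WT and 142 and 115 in the cKO at 4 h, so that the cKO mean was 24.3% and 23.0% of WT. A list of 8 stimulation genes that includes Nos2, Cxcl9 and Il6 summed to 1150 to 1333 at 0 h and to 777213 to 956399 at 4 h over both genotypes. The summed macrophage markers (7 genes) were 117988 to 126687 in the WT and 122428 to 131590 in the cKO at 0 h. At 4 h they were 57078 to 59566 in the WT and 65267 to 70471 in the cKO. Single markers went both ways. At 0 h Csf1r was 38697 and 44260 in the WT and 26255 and 30290 in the cKO. Adgre1 was 20130 and 24458 in the WT and 13820 and 14295 in the cKO. Cd68 was higher in the cKO, at 45504 and 42908 in the WT and 69414 and 73397 in the cKO. At 4 h Adgre1 was again lower and Cd68 higher in the cKO, and Csf1r overlapped. Lyz2, the macrophage marker at the LysM locus, was 594 and 905 in the WT and 1158 and 1375 in the cKO at 0 h. At 4 h it was 455 and 597 in the WT and 803 and 1051 in the cKO. The genotypes did not overlap in Lyz2 at either time, and its part in the receptor levels was not tested.

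Markers of other cells that carry Fc receptors were measured as well. The B-cell markers Ms4a1 and Pax5 did not exceed 0.411 in any sample, the T-cell markers Cd3e, Cd3g and Cd3d did not exceed 2.73 and Cd8a did not exceed 2.40, and the 4 NK-cell markers in the tables summed to at most 10.03. Cd4, the other marker on the T-cell list, was 173 and 197 in the WT and 140 and 146 in the cKO at 0 h, so that the genotypes did not overlap, and 13.4 to 23.5 over both genotypes at 4 h. The B-cell marker Cd79b was 142 and 123 in the WT and 69.1 and 66.3 in the cKO at 0 h, and 1.70 to 10.5 over both genotypes at 4 h. The part of Cd4 and Cd79b in the receptor levels was not tested. The 5 mast-cell and basophil markers in the tables summed to at most 41.0, mostly from Kit. The 5 dendritic-cell markers summed to 28.5 to 39.5 in the WT and 35.7 to 47.0 in the cKO at 0 h. At 4 h they summed to 29.5 to 67.2 in the WT and 25.7 to 34.7 in the cKO. Of these, Xcr1 was 17.5 and 52.4 in the WT and 4.64 and 2.32 in the cKO at 4 h. Zbtb46 went the other way, at 6.59 and 7.08 in the WT and 16.6 and 23.9 in the cKO. The 8 neutrophil markers summed to 23949 to 26512 in the WT and 27802 to 36847 in the cKO at 0 h, and to 18010 to 22253 and 22710 to 25791 at 4 h, chiefly from S100a9, S100a8 and Ngp, with Ly6g at 0 to 7.37. The neutrophil sum was therefore higher in the cKO than in WT at both times, and its part in the receptor levels was not tested.

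In unstimulated WT BMDMs the common chain Fcer1g and the activating receptor Fcgr3 were the most abundant of the 5 genes, and the other receptors were several-fold lower. Mean coverage was 21070 ± 2275 (SD, n = 2) for Fcer1g and 18646 ± 942 for Fcgr3, ranks 71 and 90 among all genes. The next were the inhibitory Fcgr2b at 2757 ± 33.1, the high-affinity receptor Fcgr1 at 2469 ± 102 and Fcgr4 at 2168 ± 130. Neighbours in this order did not overlap between samples, but the Fcer1g and Fcgr3 means differed by little more than the SD of Fcer1g, and the 19462 of Fcer1g in WT sample 2 was close to the 19312 of Fcgr3 in the same sample. In the cKO at 0 h the order was Fcer1g, Fcgr3, Fcgr2b, Fcgr4 and Fcgr1, with Fcgr1 moved to the last place. At 4 h both genotypes had the order Fcer1g, Fcgr4, Fcgr3, Fcgr1 and Fcgr2b, without overlap between neighbours, so that Fcgr4 had moved from the last or last but one place to the second. The plot of coverage by group shows every sample.

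**Figure D1:**
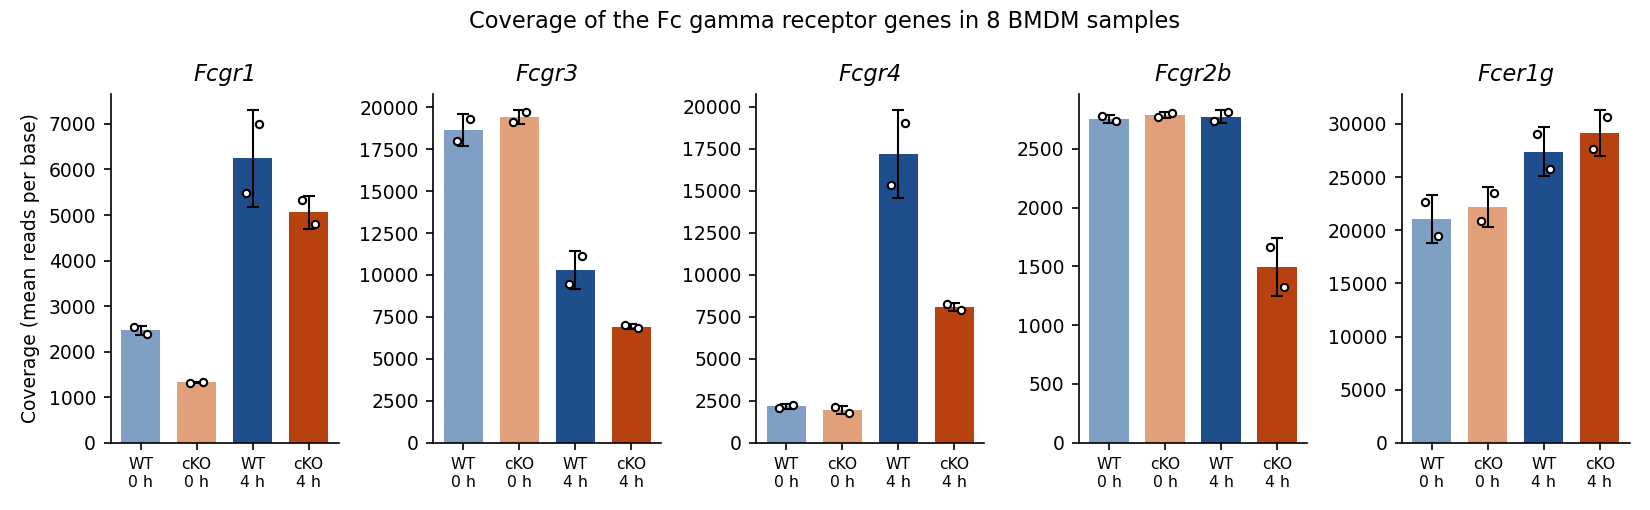
Coverage (mean reads per base, linear axes starting at 0) of each Fc gamma receptor gene by group. Bars are means, error bars the SD of 2 samples and circles the single samples. Fcgr4 and Fcgr1 rise at 4 h in both genotypes, and the 2 cKO samples lie below the 2 WT samples at 4 h in the 4 receptor chains but not in Fcer1g.

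The first question was whether loss of Nudt21 alters the receptors before stimulation. Fcgr1, the only high-affinity IgG receptor, was the only one of the 5 genes that was called. Its coverage was 2541 and 2397 in WT samples 1 and 2 and 1318 and 1338 in the cKO samples 3 and 4. Both cKO samples lay below both WT samples, as in 20.9% of all genes tested, and the cKO mean was 53.8% of WT. The log2 fold change, from limma on log2(coverage + 0.1), was -0.89 (SE 0.10, unadjusted p = 0.00285, adjusted p = 0.0934). The rule for a call was a change of more than 1.5-fold together with an unadjusted p under 0.05, which Fcgr1 met, whereas its adjusted p did not reach 0.05 with the 4 samples of 0 h. Under the alternatives its adjusted p ran from 0.00226, when the variance was allowed to follow the level, to 0.333 with 1 sample left out, and it was 0.0379 in a fit of all 8 samples. In these bulk samples fewer cells of a type and less RNA per cell cannot be told apart.

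The other activating receptors and the inhibitory receptor had overlapping samples at 0 h. Fcgr3, the low-affinity receptor that shares most of its extracellular sequence with Fcgr2b, was 17980 and 19312 in the WT and 19095 and 19698 in the cKO, a log2 fold change of 0.06 (95% interval -0.28 to 0.39). Fcgr4, the receptor of intermediate affinity, was 2076 and 2261 in the WT and 2112 and 1780 in the cKO, a log2 fold change of -0.16 (-0.62 to 0.30). Fcgr2b was 2780 and 2733 in the WT and 2770 and 2807 in the cKO, a log2 fold change of 0.02 (-0.29 to 0.32). None of these 3 receptors was called. Fcer1g, whose product carries the ITAM, was 22678 and 19462 in the WT and 20885 and 23485 in the cKO, with overlapping samples and a log2 fold change of 0.08 (-0.39 to 0.54). For Fcgr2b, Fcgr3 and Fcer1g the interval leaves out a 1.5-fold change in either direction, and for Fcgr4 it does not. The call was thus 1 of 5 genes lower and 0 higher, where 5.61% of the 16251 genes tested were called lower and 8.99% higher. An adjusted p under 0.05 was reached by 1.03% of all genes and 0 of the 5. The median log2 fold change of the 5 genes was 0.02 and that of all genes 0.10. After centring on the median gene of each sample the log2 fold change of Fcgr1 was -0.99 and its call stood, beside 6.98% of all genes called lower, while the small differences of Fcgr2b, Fcgr3 and Fcer1g turned to -0.08, -0.03 and -0.02.

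The second question was how the genotypes compared after IFNγ/LPS. At 4 h all 4 IgG-binding chains had both cKO samples below both WT samples, as did 14.9% of all genes tested, whereas the common chain was not. Fcgr4 was 15317 and 19033 in the WT and 8251 and 7915 in the cKO. The cKO mean was 47.1% of WT, the largest reduction among the 5 genes, with a log2 fold change of -1.08 (SE 0.16, adjusted p = 0.0648). Fcgr2b was 2736 and 2813 in the WT and 1668 and 1322 in the cKO. The samples were again apart, and the cKO mean was 53.9% of WT, a log2 fold change of -0.90 (SE 0.17, adjusted p = 0.0771). An activating receptor and the inhibitory one were therefore lower side by side.

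Fcgr3 was 9478 and 11102 in the WT and 7012 and 6821 in the cKO at 4 h. The groups did not overlap and the cKO mean was 67.2% of WT, but the log2 fold change of -0.57 (SE 0.13, unadjusted p = 0.0227, adjusted p = 0.0988) fell short of the 1.5-fold limit and was not called. Fcgr1 was 5494 and 6992 in the WT and 5321 and 4806 in the cKO, 81.1% of WT. Its groups were only just apart, with WT sample 1 and cKO sample 3 close to each other, and the log2 fold change of -0.29 (95% interval -0.86 to 0.27, adjusted p = 0.345) was not called. Fcer1g was 29040 and 25769 in the WT and 27655 and 30677 in the cKO, so the groups overlapped, with a log2 fold change of 0.09 (-0.33 to 0.51).

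At 4 h the call was 2 of 5 genes lower, Fcgr4 and Fcgr2b, and 0 higher, where 4.17% of the 14950 genes tested were called lower and 20.8% higher. The median log2 fold change of the 5 genes was -0.57 and that of all genes 0.31. Among all tested genes the log2 fold changes of Fcgr4, Fcgr2b, Fcgr3 and Fcgr1 stood at the percentiles 5.82, 7.14, 10.9 and 16.7, and that of Fcer1g at 35.0. Because the median gene was shifted upwards, the values were also centred on the median gene of each sample. Then 4 of 5 genes were called lower, Fcgr4 at -1.42 (adjusted p = 0.0493), Fcgr2b at -1.24, Fcgr3 at -0.91 and Fcgr1 at -0.63, beside 9.9% of all genes, and Fcer1g stood at -0.25 without a call. On the deposited scale none of the 5 had an adjusted p under 0.05 in limma with the 4 samples of 4 h, which 3.86% of all genes had, 3 had an unadjusted p under 0.05, beside 34.3% of all genes, and a fit of all 8 samples gave adjusted p values of 0.0105 for Fcgr4, 0.0112 for Fcgr2b and 0.0223 for Fcgr3. Over all alternatives the adjusted p ran from 0.00249 to 0.329 for Fcgr4, from 0.00468 to 0.327 for Fcgr2b and from 0.00854 to 0.367 for Fcgr3, lowest when the variance was allowed to follow the level and highest without cKO sample 4. With 1 sample left out the fold changes of Fcgr4 and Fcgr2b stayed negative, but the call of Fcgr2b was lost without WT sample 1 (-0.92) or WT sample 2 (-0.88), that of Fcgr4 was lost without cKO sample 4 (-1.05), and Fcgr3 was called without WT sample 1 (-0.68).

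**Figure D2:**
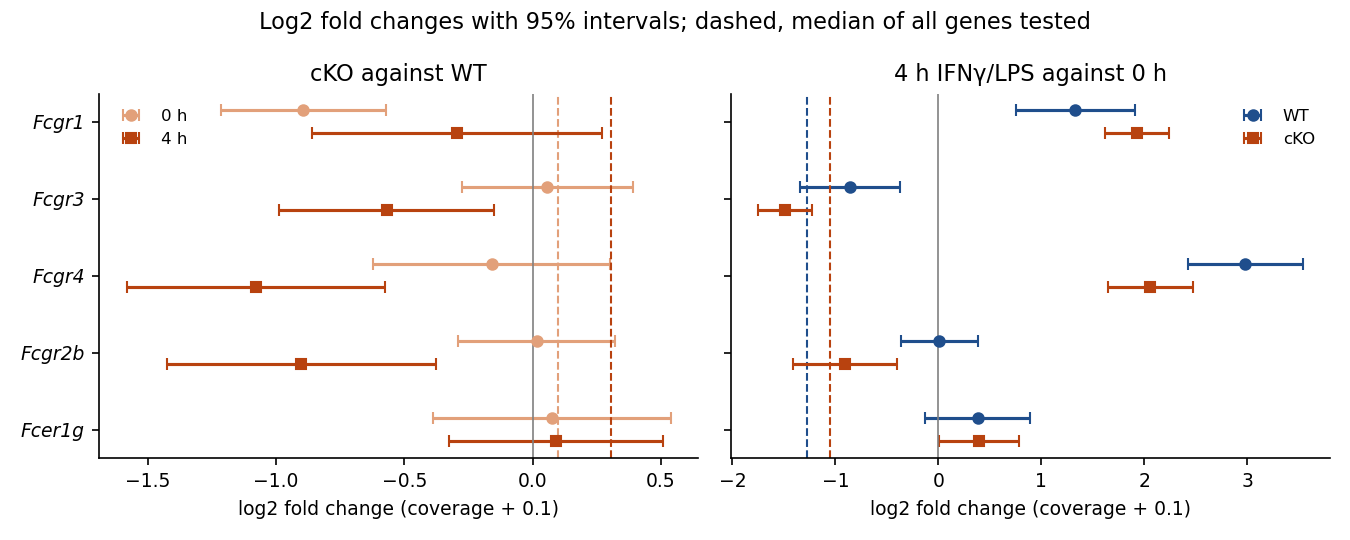
Log2 fold changes of coverage + 0.1 with 95% intervals from limma, for cKO against WT at 0 h and 4 h (left) and for 4 h against 0 h in WT and in the cKO (right). Dashed lines give the median of all genes tested in each comparison, 0.10 and 0.31 on the left and -1.27 and -1.05 on the right. At 0 h Fcgr1 alone is clear of 0 on the left, and at 4 h Fcgr4, Fcgr2b and Fcgr3 are.

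The third question was how the treatment changed each gene within a genotype. The activating receptors split. Fcgr4, which has the ISRE core shown above, rose from a mean of 2168 to 17175 ± 2628 in WT, 7.92-fold, and from 1946 to 8083 ± 237 in the cKO, 4.15-fold. Fcgr1, which has the GAS match, rose 2.53-fold in WT, to 6243 ± 1059, and 3.81-fold in the cKO, to 5064 ± 364. The part of either match in these rises was not tested. The log2 fold changes were 2.98 (SE 0.18, adjusted p = 0.00349) and 2.06 (SE 0.13, adjusted p = 0.00264) for Fcgr4, and 1.33 (SE 0.19, adjusted p = 0.0120) and 1.93 (SE 0.10, adjusted p = 0.00205) for Fcgr1, in WT and cKO respectively. Every 4 h sample was above every 0 h sample of the same genotype for both genes, as for 16.6% of all genes in WT and 19.3% in the cKO.

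Fcgr3 and Fcgr2b did not rise on the deposited scale. Fcgr3 fell to 55.2% of its 0 h mean in WT (log2 fold change -0.86, SE 0.16, adjusted p = 0.0202) and to 35.7% in the cKO (-1.49, SE 0.08, adjusted p = 0.00223). The times did not overlap in either genotype, with the 4 h samples lower as in 69% of all genes in WT and 67.9% in the cKO. Fcgr2b had the same level at both times in WT, 2757 and 2775 (log2 fold change 0.01, 95% interval -0.37 to 0.38), and fell to 53.6% in the cKO (-0.91, SE 0.16, adjusted p = 0.0182). Fcer1g stood at 130% of 0 h in WT and 131% in the cKO, higher in all 4 h samples, with log2 fold changes of 0.38 (adjusted p = 0.129) and 0.40 (adjusted p = 0.0646) that were under the 1.5-fold limit. The calls were 3 of 5 genes in WT, 2 higher and 1 lower, where 11.9% of all genes were called higher and 55.1% lower, and 4 of 5 in the cKO, 2 higher and 2 lower, where 13.7% and 53.2% were. The medians of the 5 genes were 0.38 in the WT and 0.40 in the cKO, and those of all genes -1.27 and -1.05.

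With the median gene this far down, the scale decided the direction for some genes. Relative to the median gene of each sample, all 5 genes were called higher at 4 h in WT, where 33.5% of all genes were, with Fcgr3 turning to 0.59 and Fcgr2b standing at 1.46. In cKO, Fcgr4, Fcgr1 and Fcer1g were called higher, beside 32.7% of all genes, while Fcgr2b turned to 0.30 and Fcgr3 stood at -0.28, both without a call. The rises of Fcgr4 and Fcgr1 were called on both scales in both genotypes. On the deposited scale the fall of Fcgr3 in WT was not called without WT sample 2 of 0 h (-0.81), nor was that of Fcgr2b in the cKO without cKO sample 3 (-0.92) or cKO sample 4 (-0.90) of 0 h.

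The fourth comparison asked whether the effect of genotype was the same at 0 h and at 4 h, as an interaction over all 8 samples. The difference in log2 fold change was -0.92 for Fcgr4 (95% interval -1.48 to -0.36, adjusted p = 0.0984), -0.92 for Fcgr2b (-1.40 to -0.43, adjusted p = 0.0766) and -0.63 for Fcgr3 (-1.04 to -0.21, adjusted p = 0.113), meaning that cKO stood lower relative to WT at 4 h than at 0 h. For Fcgr1 it had the opposite sign, 0.60 (0.07 to 1.13, adjusted p = 0.185), and for Fcer1g it was 0.01 (-0.49 to 0.52). At an adjusted p under 0.05 in limma, 0 of the 5 genes passed, beside 3.05% of the 16284 genes tested, while 4 of 5 had an unadjusted p under 0.05, beside 22.1% of all genes. After median-centring 1 gene passed, Fcgr3 at -0.89 (adjusted p = 0.0429), beside 2.12% of all genes, and 3 passed when the variance was allowed to follow the level, Fcgr2b, Fcgr3 and Fcgr4, a setting under which 7.87% of all genes passed.

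Ratios between chains of the same sample do not depend on sequencing depth or on the scaling of samples. The exact permutation test of 2 against 2 samples cannot give a two-sided p below 0.333, so the ratios are given by sample. The ratio of Fcgr1 to the inhibitory Fcgr2b was 0.914 and 0.877 in the WT and 0.476 and 0.477 in the cKO at 0 h. It was 2.01 and 2.49 in the WT and 3.19 and 3.63 in the cKO at 4 h. The cKO samples were thus below WT at 0 h and above WT at 4 h, and the ratio rose 2.49-fold in WT and 7.15-fold in the cKO.

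The ratio of Fcgr4 to Fcgr2b was 0.747 and 0.827 in the WT and 0.763 and 0.634 in the cKO at 0 h. At 4 h it was 5.60 and 6.76 in the WT and 4.95 and 5.99 in the cKO, with overlap between genotypes at both times. It rose 7.83-fold in WT and 7.82-fold in the cKO. The ratio of Fcgr3 to Fcgr2b was 6.47 and 7.07 in the WT and 6.89 and 7.02 in the cKO at 0 h, and 3.46 and 3.95 in the WT and 4.20 and 5.16 in the cKO at 4 h, where the cKO samples were higher.

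The 3 activating receptors summed together, a ratio added after the values were seen, stood to Fcgr2b as 8.129 and 8.770 in the WT and 8.132 and 8.128 in the cKO at 0 h, and as 11.1 and 13.2 in the WT and 12.3 and 14.8 in the cKO at 4 h. The genotypes overlapped at both times. Both genotypes moved to the activating side with stimulation, 1.43-fold in WT and 1.66-fold in the cKO.

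Relative to the sum of the receptors that depend on it, the common chain rose 1.49-fold with stimulation in the cKO. In WT the times overlapped (0.904-fold). The ratio of Fcer1g to the summed activating receptors was 1.004 and 0.812 in the WT and 0.927 and 1.03 in the cKO at 0 h. It was 0.959 and 0.694 in the WT and 1.34 and 1.57 in the cKO at 4 h. The genotypes overlapped at 0 h and were apart at 4 h, where the cKO ratio was 1.78 times that of WT (exact permutation p = 0.333, the smallest the design allows). The ratio of coverages is not a ratio of proteins, since translation of the chains was not measured.

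**Figure D3:**
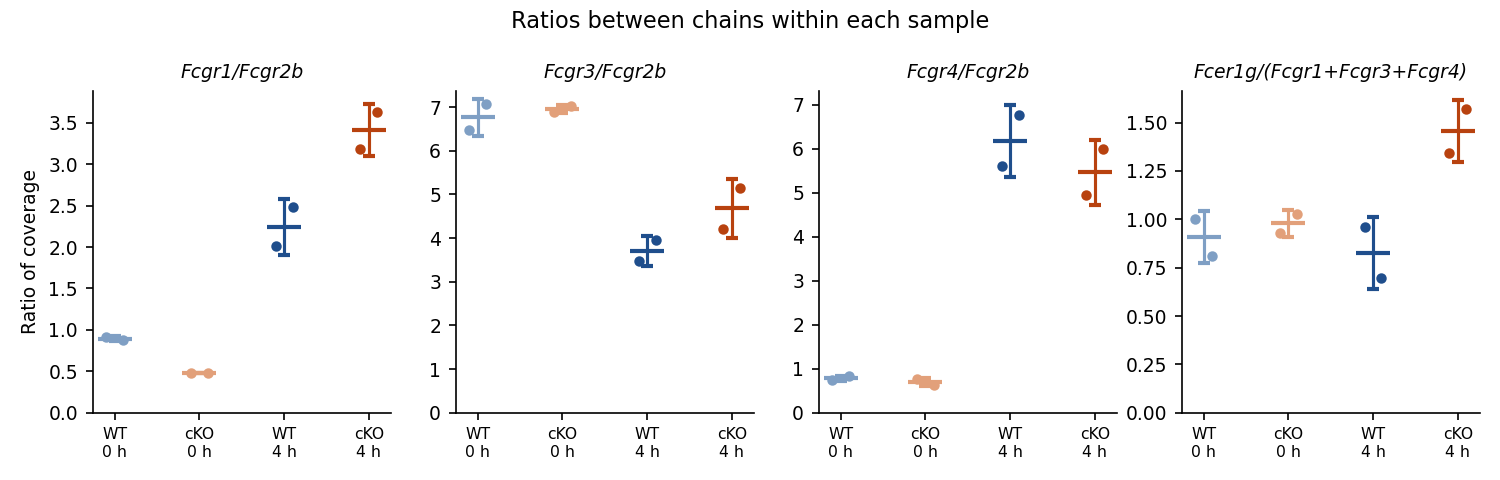
Ratios of coverage between chains within each sample, by group, on linear axes starting at 0. Points are single samples, horizontal marks the mean and error bars the SD of 2 samples. Fcgr1/Fcgr2b is lower in the cKO at 0 h and higher at 4 h, Fcgr4/Fcgr2b overlaps between genotypes, and Fcer1g over the activating receptors is above 1.3 only in the stimulated cKO samples.

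The makeup of the 4 IgG-binding chains changed from mostly Fcgr3 to a mixture led by Fcgr4. Their summed coverage was 25377 and 26703 in the WT and 25295 and 25623 in the cKO at 0 h, and 33025 and 39941 in the WT and 22252 and 20864 in the cKO at 4 h. The sums overlapped between genotypes in unstimulated cells. At 4 h the cKO sums were below those of WT and, on the deposited scale, below all 0 h samples. Sums were not computed on the median-centred scale, on which changes between the times stood higher. Fcgr3 made up 71.6% ± 1.04 (SD, n = 2) of the sum in WT and 76.2% ± 0.983 in the cKO at 0 h, and 28.2% ± 0.639 and 32.1% ± 0.832 at 4 h. Fcgr4 went from 8.32% ± 0.201 to 47.0% ± 0.900 in the WT and from 7.65% ± 0.993 to 37.5% ± 0.606 in the cKO.

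Fcgr1 went from 9.50% ± 0.733 to 17.1% ± 0.616 of the sum in WT and from 5.22% ± 0.00663 to 23.5% ± 0.619 in the cKO. Stimulated cKO cells thus carried a larger share of Fcgr1 and a smaller share of Fcgr4 than stimulated WT cells, with no overlap between samples. The inhibitory Fcgr2b made up 10.6% ± 0.508 in the WT and 10.95% ± 0.00399 in the cKO at 0 h, and 7.66% ± 0.876 and 6.92% ± 0.820 at 4 h, where the genotypes overlapped.

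**Figure D4:**
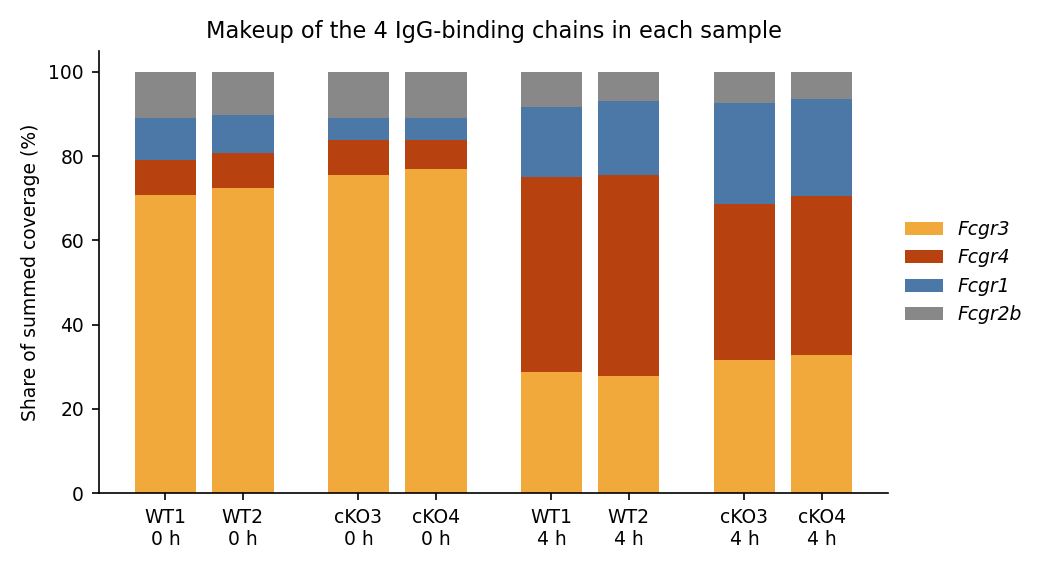
Share of each IgG-binding chain in the summed coverage of the 4 chains (percent, stacked to 100), 1 bar per sample. Fcgr3 leads in all 0 h samples, at 70.8% to 76.9%, and Fcgr4 in all 4 h samples, at 37.1% to 47.7%.

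The genes that work with the receptors were taken from a list of 77 in 8 groups, of which 75 were in the tables. At 0 h, calls among the 72 tested were 6 higher in the cKO and 3 lower, where 8.99% and 5.61% of all genes were, with a median log2 fold change of 0.08 beside 0.10. After median-centring they were 4 higher and 8 lower, where 7.25% and 6.98% of all genes were. At 4 h, 10 of the 70 tested were called higher and 7 lower, where 20.8% and 4.17% of all genes were, with a median of 0.18 beside 0.31, and after median-centring the calls were 5 higher and 15 lower, where 10.4% and 9.9% of all genes were, so the split of this list depends on the scale at both times. The counts by group that follow are on the deposited scale and stand beside the same shares of all genes. The 8 kinases had 0 calls at 0 h. At 4 h the kinase Src was called higher, at 1572 ± 219 in the WT and 3753 ± 39.8 in the cKO (log2 fold change 1.26, adjusted p = 0.0556), and the kinases Fyn (-0.66) and Tec (-0.64) were called lower. Syk, which docks on the ITAM of Fcer1g, was 5874 ± 126 in the WT and 6483 ± 173 in the cKO at 4 h, without a call.

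Among 10 genes of lipid signalling, Pik3cg, a catalytic subunit of phosphoinositide 3-kinase, was called lower at both times, at 988 ± 95.2 in the WT and 656 ± 12.8 in the cKO at 0 h, and 633 ± 6.42 and 300 ± 29.8 at 4 h. The regulatory subunits Pik3r1 (1.47, adjusted p = 0.0445) and Pik3r5 (0.61) were called higher at 4 h, and Prkcd (0.60) was called higher at 0 h. Of 10 adaptors only Lat2 was called, higher at 0 h (0.62). Of 14 genes of engulfment, the actin regulator Was was called higher (0.87) and the exchange factor Vav3 lower (-1.01) at 4 h, and 0 were called at 0 h.

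The 9 genes of inhibitory signalling, phosphatases and Dok adaptors together with Csk and its binding protein, had 0 calls at 0 h, where 8.99% of all genes were called higher and 5.61% lower. At 4 h they had 3 calls, 1 higher and 2 lower, where 20.8% and 4.17% of all genes were. The Csk-binding protein Pag1 was called higher (1.14), and the phosphatase Inppl1 (SHIP-2, -1.08) and the adaptor Dok2 (-0.68) lower. Inpp5d, which encodes the SHIP-1 that Fcgr2b recruits, was 3923 ± 245 in the WT and 3497 ± 287 in the cKO at 0 h, and 309 ± 56.7 and 385 ± 1.91 at 4 h, without a call between genotypes. Among 6 other receptors with an ITIM, Cd300lf was called higher (0.96) and Siglece lower (-1.88) at 0 h, and Cd300a was called higher (0.85) at 4 h.

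Of 11 other Fc receptors in the tables, 9 were tested at 0 h and 6 at 4 h. Fcgrt, the neonatal Fc receptor that recycles IgG, was 2251 ± 64.5 in the WT and 1505 ± 51.7 in the cKO at 0 h, just under the fold limit (log2 fold change -0.58). It was 1410 ± 250 and 581 ± 18.1 at 4 h, and was called lower there (-1.27, adjusted p = 0.0617). Trim21, the cytosolic antibody receptor, was called higher at 4 h (0.64), as was Fcrls (0.99), and Fcrl5 was called lower at 0 h (-2.84) at a coverage of 20.8 ± 1.19 in the WT and 2.90 ± 1.003 in the cKO.

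Among 7 other receptors and adaptors, most of which carry an ITAM or pair with a chain that does, 2 lectin receptors that signal through Fcer1g were called higher at both times. Clec4e (Mincle) was 291 ± 60.3 in the WT and 830 ± 315 in the cKO at 0 h, and 24863 ± 8645 and 50755 ± 4552 at 4 h, with log2 fold changes of 1.47 and 1.07. Clec4n (Dectin-2) was 1674 ± 83.8 and 3896 ± 756 at 0 h, and 693 ± 28.5 and 1417 ± 216 at 4 h, with log2 fold changes of 1.21 and 1.02. Other partners of Fcer1g on the list were not called. Clec4d had log2 fold changes of 0.23 at 0 h and 0.18 at 4 h (-0.16 after median-centring), and Oscar, at a mean coverage of 0 to 1.001 in the 4 groups, was not tested at 0 h and stood at -1.88 at 4 h. The adaptor Hcst was called higher at 0 h (0.79). After median-centring none of the genes named in these groups changed sign between genotypes where it had been called, but the calls of Lat2 and Prkcd at 0 h and of Pik3r5, Was, Cd300a, Trim21 and Clec4e at 4 h were lost. Calls were also gained on that scale, all of them lower in the cKO. Among the genes named here these were Fcgrt (-0.67), Dok2 (-0.65) and Fcrls (-0.65) at 0 h.

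**Figure D5:**
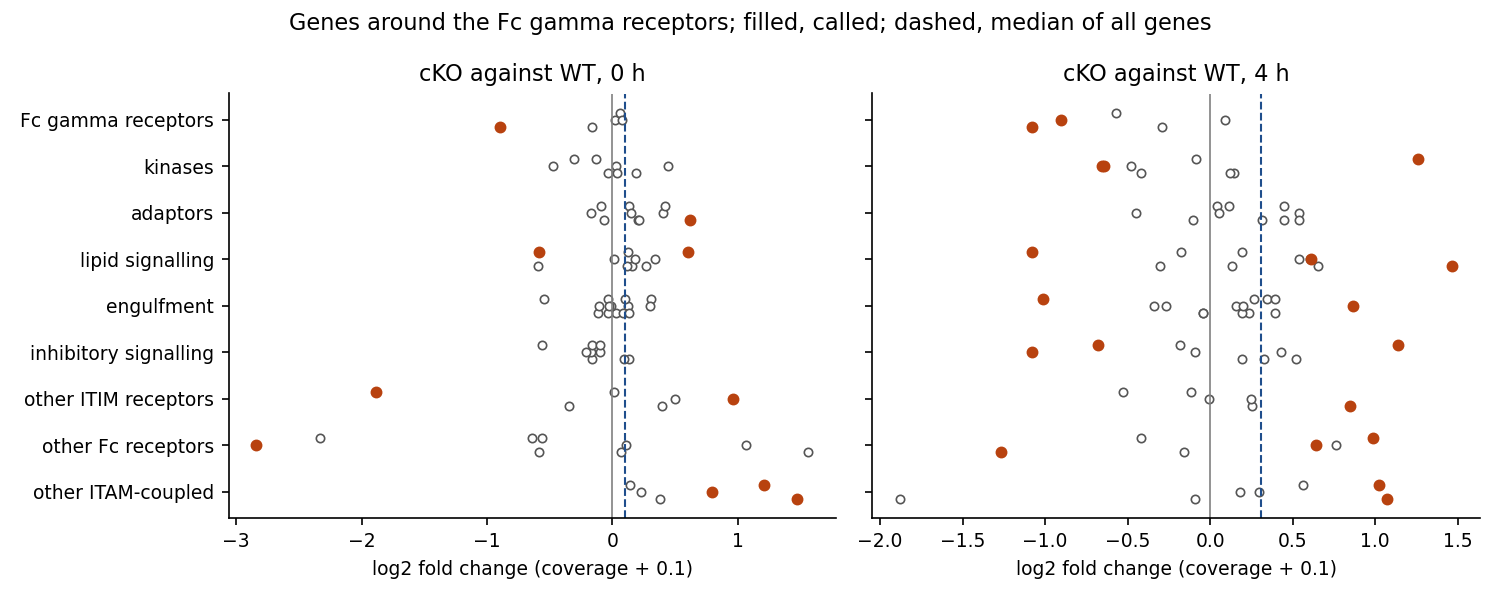
Log2 fold changes of coverage + 0.1, cKO against WT, at 0 h (left) and 4 h (right), for the Fc gamma receptor genes and the 8 groups of related genes. Each point is 1 gene, filled where called and open where not, and the dashed line is the median of all genes tested (0.10 and 0.31). At 4 h the 4 IgG-binding chains all lie left of 0 and Fcer1g, in the same row, lies right of it (0.09). Each of the other groups spans 0 as well.

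The genes around the receptor loci were counted in the same way. Of 61 genes within 100 kb of one of the 5 genes, 30 were tested at 4 h, with 4 called higher and 2 called lower, where 20.8% and 4.17% of all genes were, and a median log2 fold change of 0.23 beside 0.31 for all genes. At 0 h, 32 were tested, with 0 called higher and 3 called lower, where 8.99% and 5.61% of all genes were, and a median of -0.01 beside 0.10.

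Fcgr2b and Fcgr3 are close in sequence, which bears on how reads are shared between them. Of the 50-base windows of the Fcgr3 transcript, 12.8% also occur in another gene, in each case Fcgr2b, and of those of Fcgr2b 11.4% occur elsewhere, Fcgr3 included. For windows of 150 bases the share was 0 for all 5 genes. How the authors' counting treated reads that match both genes is not given in the sources used here.

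As a description of the patterns over all 8 samples, log2 coverage of each receptor was correlated with that of 12024 genes of mean coverage at least 10. The samples come from 2 times and share libraries and depth, so r mostly follows the treatment for genes that change with it in both genotypes. Fcgr2b was low in the stimulated cKO samples alone. Its means were 2757 in the WT and 2789 in the cKO at 0 h, and 2775 and 1495 at 4 h. The closest genes were Olr1 (r = 0.998), Aebp2 (0.995) and Rnf34 (0.994) for Fcgr4, Perm1 (0.991), Mitf (0.990) and Omp (0.989) for Fcgr1, and Clec4a2, Phf20 and Anapc4 (each 0.998) for Fcgr3. They were Ccr1 (0.983), Gm38843 (0.981) and Cd48 (0.967) for Fcgr2b, and Sfpq (0.992), Crem (0.986) and Ift57 (0.985) for Fcer1g. Only 6 genes reached r above 0.95 with Fcgr2b, against 888 with Fcgr3.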

How the data were processed

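RNA-seq was made from 8 BMDM samples, 2 for each genotype and time. The authors aligned reads with HISAT2 2.2.1 and quantified genes with StringTie 2.1.7 on mm10/GRCm38, and the deposited signal is taken as coverage, with 1 value for every gene in each sample. This unit is not named in the tables and was inferred. Of 2929 low values, 37.9% became whole numbers of bases (within 0.05) when multiplied by transcript length, and the others did not. The share that arbitrary values would reach was not computed, so the unit is not certain. The read depth behind a value is therefore unknown and no counting interval was computed. The tables also hold the authors' fold changes and p-values, which were not used. No column of sample values was left unused (0 columns).

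limma 3.58.1 (R 4.3.3) was run on log2(coverage + 0.1) for all genes with a mean of at least 0.5 in the samples compared, after it was tested on simulated data, with Benjamini-Hochberg adjustment over all genes tested. Genotypes were compared with the 4 samples of each time, times within each genotype, and the interaction over all 8 samples. Nothing in the labels says that the samples of a group came from separate cultures beyond the pooled mice, so p-values measure the spread between these samples. The members and gene lists were chosen with earlier results of these data known. Named genes were the 5 members, Nudt21, and from each related group those called at both times or up to 3 called genes with the largest change, to which Syk, Inpp5d, Clec4d, Oscar and the 0 h values of Fcgrt were added after their values were seen. Alternatives covered scaling, pseudocount, filter, variance, samples in the fit and leaving out each sample. Promoters came from RefSeq (GRCm38.p6) and transcripts from GENCODE M21.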

Additional observations from a re-analysis of the deposited data

How the results depend on the processing

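Counts of the 5 genes called moved with the scale and the threshold. For cKO against WT at 0 h the count was 1, and 0 with adjusted p under 0.05. At 4 h it was 2, 4 after median-centring, 3 after quantile normalization or scaling to equal totals (Fcgr3 was called as well, at -0.77 and -0.78), 0 with adjusted p under 0.05 and 1 to 2 with 1 sample left out. For 4 h against 0 h it was 3 in WT (5 after median-centring, 2 to 3 with 1 sample left out) and 4 in cKO (3 to 4). For the interaction it was 0, 1 after median-centring, 3 with an intensity trend and 0 to 0 with 1 sample left out. A fit that leaves 1 sample in a group assumes that it varies like the other group. The cause of these changes was not tested.

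Log2 fold changes that changed sign were of 2 kinds, small ones that had not been called and the called falls of Fcgr3 in WT (-0.86) and of Fcgr2b in cKO (-0.91) for 4 h against 0 h, which median-centring turned to 0.59 and 0.30. At 0 h Fcgr2b was -0.076 when median-centred, -0.104 when quantile-normalized and -0.106 when scaled to equal totals, Fcer1g was -0.016, -0.020 and -0.046, and Fcgr3 was -0.034 when median-centred and -0.065 when scaled to equal totals. At 4 h Fcer1g was -0.246, -0.132 and -0.121, and for the interaction -0.251, -0.084 and -0.075, in the same order. For 4 h against 0 h, quantile normalization gave -0.048 for Fcgr2b in WT and -0.084 for Fcer1g in cKO. With 1 sample left out, Fcer1g ranged from -0.034 to 0.186 at 0 h and from -0.096 to 0.125 for the interaction, and Fcgr2b from -0.011 to 0.030 for 4 h against 0 h in WT.

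Samples with the same number at 0 h and 4 h did not deviate together (r = 0.02 in WT and 0.02 in cKO, across genes). With the replicate number as a block, 3 genes were called in WT, 4 in cKO and 0 for the interaction, so no count changed. With 2 samples per group the spread is itself poorly known, and the genotype cannot be told apart from other differences between the pooled mice.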
